A study of Mus musculus with 3 samples.

Results

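The DNAJ proteins, also called J-domain proteins or Hsp40 co-chaperones, were followed in differentiated C2C12 cells, a mouse myoblast line that forms myotubes when serum is lowered, with and without shRNA against Tead4. Members were the rows of the read-count table with a symbol of the form Dnaja, Dnajb or Dnajc plus a number, without pseudogenes, and with at least 10 raw reads over the 3 libraries. Of 42 such rows among 20162 genes, 40 were members, with 39 different symbols because Dnajc13 stood at 2 identifiers. The other two were Dnajc5b, with 1, 2 and 1 reads in the shRNA A, shRNA B and control libraries, and Dnajb13, with 2, 1 and 0. Dnajc22, with 18 reads in all, was the member nearest to the minimum.

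The study asked which genes depend on the transcription factor Tead4 in muscle cells. The Tead4 shRNA group held 2 libraries of polyadenylated RNA, 1 from cells with a lentiviral shRNA A and 1 from cells with an independent shRNA B, both directed against Tead4. The control shRNA group was 1 library from cells with a lentivirus coding for a control shRNA. All 3 were puromycin-selected populations of infected cells, not clones, kept under puromycin and differentiated for 7 days in low horse serum, and no genotype other than the C2C12 line is involved.

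A DNAJ protein carries a J domain, which binds an Hsp70 chaperone and stimulates its ATPase, so that the Hsp70 closes on a substrate that the DNAJ protein has often delivered. Each compartment has its own Hsp70: Hspa5 (BiP) in the lumen of the endoplasmic reticulum, Hspa9 (mortalin) in mitochondria, and Hspa8 with the heat-inducible Hspa1a and Hspa1b in the cytosol and nucleus. Several lumenal DNAJ genes are known targets of the unfolded protein response, and several cytosolic ones of the heat shock response. In muscle, cytosolic DNAJ proteins serve the upkeep of the sarcomere.

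The promoters of 4 lumenal members are shown first because 3 of these genes fell with Tead4 shRNA and Dnajc10 did not pass the test. Each is the 250 bases before the RefSeq start (build GRCm38.p6), written 5′ to 3′ on the gene's strand. Capitals mark CCAAT and CCACG on either strand, the ends of the endoplasmic reticulum stress element (ERSE), which is known as a site for ATF6 with NF-Y. Positions below are counted back from the start.
Dnajb9, chr12:44210069-44210318, minus strand: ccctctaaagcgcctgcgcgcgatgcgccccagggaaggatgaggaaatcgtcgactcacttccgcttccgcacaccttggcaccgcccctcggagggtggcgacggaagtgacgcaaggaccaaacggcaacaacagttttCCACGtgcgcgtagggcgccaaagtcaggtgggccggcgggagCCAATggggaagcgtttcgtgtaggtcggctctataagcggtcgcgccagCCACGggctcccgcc
Dnajc3, chr14:118937682-118937931, plus strand: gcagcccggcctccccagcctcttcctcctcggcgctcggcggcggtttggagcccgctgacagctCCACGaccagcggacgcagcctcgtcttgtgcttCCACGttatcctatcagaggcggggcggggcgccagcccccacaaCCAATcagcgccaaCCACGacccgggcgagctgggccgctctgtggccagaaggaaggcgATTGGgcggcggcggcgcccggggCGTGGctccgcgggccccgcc
Dnajb11, chr16:22857595-22857844, plus strand: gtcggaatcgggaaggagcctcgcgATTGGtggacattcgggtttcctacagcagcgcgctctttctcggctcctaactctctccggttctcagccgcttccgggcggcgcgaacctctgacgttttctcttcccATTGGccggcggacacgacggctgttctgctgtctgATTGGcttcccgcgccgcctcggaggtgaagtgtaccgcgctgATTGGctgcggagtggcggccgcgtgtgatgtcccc
Dnajc10, chr2:80315216-80315465, plus strand: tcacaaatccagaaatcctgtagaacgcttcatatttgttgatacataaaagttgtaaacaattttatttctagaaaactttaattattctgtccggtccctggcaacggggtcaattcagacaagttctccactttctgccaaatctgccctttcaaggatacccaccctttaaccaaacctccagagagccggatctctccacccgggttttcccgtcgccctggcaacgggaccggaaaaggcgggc

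Dnajc3 held the full ERSE, that is CCAAT and CCACG with 9 bases between them, from position -105 to -87, and was the sole member of 32 with a RefSeq window to do so. Of all 32851 windows, 37 held it (0.113%). Dnajb9 held CCACG from -108 and from -15 and CCAAT from -65, not at ERSE spacing. Dnajb11 held CCAAT on the opposite strand at 4 places and no CCACG, and Dnajc10 held neither. The fifth lumenal member, Dnajc1, which did not pass the test either, held CCACG from -100 to -96. Alone, CCAAT stood in 33.8% of all windows and in 15 of the members' 45 windows (33.3%). CCACG stood in 28.3% of all windows and in 24 of the 45 (53.3%, 19 members); both occur within ERSE, so these shares overlap with it. The other motifs searched were not in these 4 windows on either strand. They were ERSE-II (ATTGG, 1 base and CCACG, in 0.0304% of all windows), TGACGTG (a core bound by XBP1, in 1.65%), TGATGNAA (a core bound by ATF4, in 3.45%), GAANNTTC (a heat shock element core, in 6.69%) and GGAATG (a TEAD site core, in 12.6%). Among the other members, TGACGTG was in the window of Dnajc25, GAANNTTC in those of Dnaja1, Dnaja4, Dnajb6 and Dnajc27, and GGAATG in those of Dnaja1, Dnajb2, Dnajb5, Dnajc7 and Dnajc15. These are matches of letters in the window.

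The libraries held 19918954 counted reads with shRNA A, 15594305 with shRNA B and 16412139 with control shRNA. Tead4, the targeted gene, had 19.7 and 10.8 CPM (reads scaled to the TMM library size) with shRNAs A and B against 78.2 CPM with control shRNA. Tead4 fell by 2.35 on the log2 scale (SE 0.27, edgeR quasi-likelihood test, adjusted p = 2.82e-06). All 7 myotube markers were detected in each library. Their summed level was 11115 and 13175 CPM with Tead4 shRNA against 19091 CPM with control shRNA, and 5 of 7 fell. The 4 markers of dividing cells in the table all rose, with a summed level of 121 and 119 CPM against 26.9 CPM. Of the markers of other cell types, the adipocyte markers in the table, Cebpa and Fabp4, summed to 28.2 and 22.3 CPM with Tead4 shRNA against 11.3 CPM. Nearly all of this came from Cebpa, which rose, and Fabp4 had 1, 0 and 1 reads. Those of osteoblasts (Sp7 and Alpl) summed to at most 0.561 CPM in any library. Cd68 of leukocytes had at most 2.79 CPM and did not pass the test. Also listed but absent from the read-count table were Adipoq and Plin1 of adipocytes, Bglap and Ibsp of osteoblasts, and Ptprc and Cd3e of leukocytes. The part of the shift from myotube to dividing-cell markers in the DNAJ results was not tested. In such bulk samples, fewer cells of a type and less RNA per cell cannot be told apart.

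With Tead4 shRNA, 5 of the 40 DNAJ members fell and 0 passed the test as higher. The 5 were the lumenal Dnajb9, Dnajc3 and Dnajb11, the mitochondrial Dnaja3 and the nuclear Dnajc21. Over all 14478 tested genes, 4.48% passed as lower, 5.34% as higher and 9.82% in either direction. Of the 40 members, 8 had an unadjusted p under 0.05 by edgeR, a share like that over all tested genes (3143 of 14478). DESeq2 and limma-voom also called 0 members higher. By compartment, 3 of 5 lumenal members fell, 0 of 6 of the reticulum membrane, 1 of 5 mitochondrial, 0 of 12 cytosolic, 0 of 5 of vesicles, 1 of 4 nuclear ones and 0 of 3 with no compartment assigned. Compartments were assigned from general knowledge, at most 1 per gene, and were not measured in these cells. The median log2 fold change was -0.18 over the members and 0.02 over all tested genes. The members' median log2 ratio was -0.23 for the shRNA A library alone and -0.07 for the shRNA B library alone. By the fit over both libraries, the median log2 fold change was -0.94 for the lumenal members, -0.24 for the reticulum membrane and -0.42 for mitochondria. It was 0.09 for the cytosol, 0.29 for vesicles and -0.37 for the nucleus. The vesicle median counts Dnajc13 at 2 identifiers (0.35 and 0.45), which may be 1 gene. The vesicle median with these summed was not computed. With 2 libraries against 1, the fit has 1 residual degree of freedom. Its spread comes from how far the shRNA A and shRNA B libraries differ. This spread is pooled over all tested genes, and the pool weighs as 20.9 degrees of freedom. The p-value of a gene thus rests more on the pool than on that gene's own gap between the shRNAs. Nothing says that the shRNA A and shRNA B libraries stand for repeat cultures. When all 3 libraries were treated as 1 group to estimate dispersion, the likelihood-ratio test of edgeR called 0 members (adjusted p = 0.885 for each of the 5) and 0 genes of the whole table. In that setting the difference between the groups is itself counted as dispersion.

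**Figure D1:**
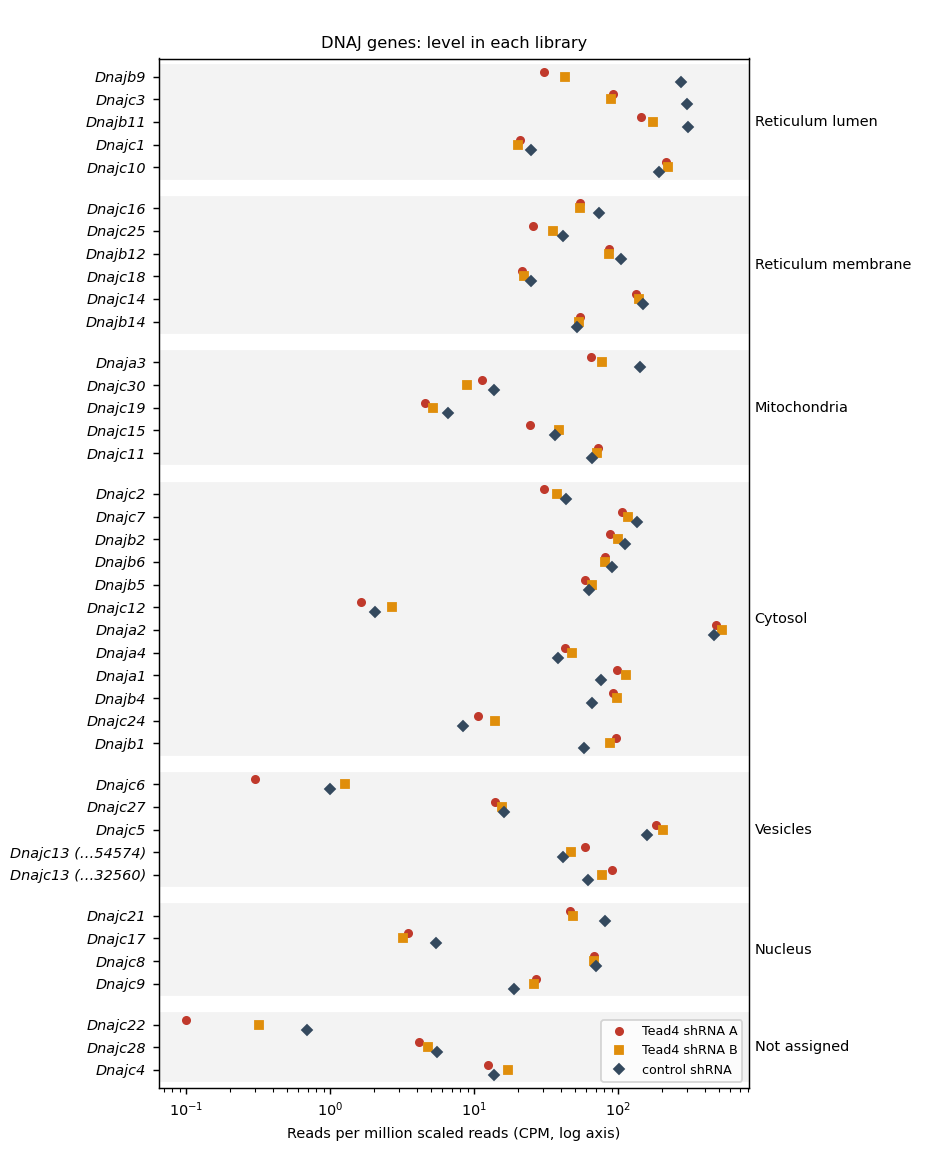
Level of each DNAJ gene in each library, in CPM on a log axis, grouped by compartment; points are single libraries, shRNA A and shRNA B against the control. Dnajb9, Dnajc3 and Dnajb11 lay at 30.4 to 175 CPM with Tead4 shRNA and at 271 to 306 CPM with control shRNA.

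Dnajb9 (ENSMUSG00000014905), known as ERdj4, is a lumenal protein that binds the stress sensor IRE1 and helps to dispose of misfolded proteins. It had 612 and 674 reads with shRNAs A and B against 4354 reads with control shRNA, or 30.4 and 42.8 CPM against 271 CPM. Both Tead4 shRNA libraries were far below the control library, 8.91-fold with shRNA A and 6.34-fold with shRNA B. The fit gave a log2 fold change of -2.89 (SE 0.23, edgeR adjusted p = 1.09e-08), rank 72 from the lowest among all 14478 genes. shRNA A gave a lower level than shRNA B: the log2 ratio of A to B was -0.49 (95% exact counting interval -0.65 to -0.33). Tead4 itself was lower with shRNA B, and whether the level of Dnajb9 follows that of Tead4 was not tested.

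Dnajc3 (ENSMUSG00000022136), known as p58IPK or ERdj6, holds misfolded proteins in the lumen and hands them to Hspa5. It had 92.2 and 88.7 CPM with Tead4 shRNA against 301 CPM with control shRNA. The levels with the pair of shRNAs differed by no more than counting error (log2 ratio of A to B 0.06, interval -0.04 to 0.16), and both were over 3-fold below the control. The fit gave a log2 fold change of -1.73 (SE 0.22, edgeR adjusted p = 1.13e-05).

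Dnajb11 (ENSMUSG00000004460), known as ERdj3, binds unfolded chains in the lumen and can be secreted. It had 145 and 175 CPM with Tead4 shRNA against 306 CPM with control shRNA. The change was smaller than for Dnajb9 and Dnajc3, at a log2 fold change of -0.94 (SE 0.23, edgeR adjusted p = 0.00957). Single-library log2 ratios to control were -1.08 (A) and -0.81 (B), so that Dnajb11 was not at least 2-fold lower in both libraries. With counting intervals that exclude no change, Dnajb9 and Dnajc3 were, and 0 members were at least 2-fold higher. By the same rule 3.1% of all tested genes were lower and 4.63% higher. Dnajc22 was also over 2-fold lower by its ratios, on 2 and 5 reads against 11 reads, but its interval with shRNA B includes no change.

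The remaining lumenal members did not pass the test. Dnajc10, known as ERdj5 and a reductase of disulfide bonds, had 214 and 221 CPM with Tead4 shRNA against 193 CPM with control shRNA, slightly above the control in both libraries (log2 fold change 0.18, SE 0.23). Dnajc1, known as ERdj1, spans the membrane with its J domain in the lumen. It had 20.8 and 20.2 CPM against 24.7 CPM (log2 fold change -0.26, SE 0.24). An exon of Dnajc1 overlaps Mllt10 on the opposite strand over 6.4% of its exon length, and the kit does not mark strand. The lumenal genes were thus not uniform: their log2 fold changes ran from -2.89 to 0.18.

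Members of the reticulum membrane were closer to the control. Their 6 log2 fold changes ran from -0.44 to 0.06, and none passed the test. Dnajc14, known for the export of membrane receptors from the reticulum, had 132 and 139 CPM with Tead4 shRNA against 148 CPM with control shRNA. Its exons overlap those of Ormdl2 and Tmem198b on the opposite strand and of Sarnp on the same strand, so its value is uncertain. Dnajb12, which works with cytosolic Hsp70 on the degradation of membrane proteins, had 86.5 and 86.0 CPM against 105 CPM, and its relative Dnajb14 had 54.4 and 53.2 CPM against 51.6 CPM. Dnajc16 had 54.5 and 54.2 CPM against 73.7 CPM, below the control in both libraries by like amounts (log2 fold change -0.44, SE 0.21, edgeR adjusted p = 0.240). Dnajc25 had 25.8 and 35.3 CPM against 41.3 CPM, and Dnajc18 had 21.5 and 21.96 CPM against 24.9 CPM.

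Among mitochondrial members, Dnaja3 fell. Dnaja3 (ENSMUSG00000004069), known as Tid1, is the co-chaperone that guides Hspa9 to folding substrates in the matrix. It had 64.8 and 76.9 CPM with Tead4 shRNA against 142 CPM with control shRNA. Both shRNA libraries lay well below the control (log2 fold change -1.01, SE 0.22, edgeR adjusted p = 0.00367). Its exons overlap those of Vasn and Coro7 over at most 4.1% of their length. The level was lower with shRNA A than with shRNA B (log2 ratio -0.25, counting interval -0.36 to -0.13), a gap close to the -0.27 of Dnajb11. Dnajc11, linked to the organisation of cristae, had 72.7 and 70.9 CPM against 65.3 CPM (log2 fold change 0.14, SE 0.22). Dnajc15 had 24.4 and 38.6 CPM against 36.3 CPM, low with shRNA A alone. Dnajc19, a part of the import motor of the inner membrane, had 4.57 and 5.20 CPM against 6.54 CPM, and Dnajc30 had 11.3 and 8.95 CPM against 13.7 CPM. The log2 fold change of Dnajc19, -0.42 (SE 0.37) on 92 and 82 reads against 105, was the mitochondrial median. Of the exon length of Dnajc30, 26.2% overlaps Bud23 on the opposite strand.

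The cytosolic members spread to both sides of the control and none passed the test, with log2 fold changes from -0.36 for Dnajc2 to 0.67 for Dnajb1. Dnaja2, a general co-chaperone of Hspa8, had 476 and 525 CPM with Tead4 shRNA against 461 CPM with control shRNA. Dnajc7, which bridges Hsp70 and Hsp90, had 106 and 117 CPM against 135 CPM, and Dnajb2, which hands clients to the proteasome, had 87.5 and 99.1 CPM against 112 CPM. Of these 3 cytosolic genes, the highest by mean CPM over the 3 libraries but not in each library, Dnaja2 lay above the control in both libraries and the others below it, none past the test.

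The highest log2 fold changes of the cytosolic group, picked out after their values were seen, were those of Dnajb1, Dnajc24, Dnajb4 and Dnaja1. Dnajb1, the main heat-inducible Hsp40, had 96.7 and 87.6 CPM with Tead4 shRNA against 58.0 CPM with control shRNA. Its log2 fold change of 0.67 missed the threshold (SE 0.23, edgeR adjusted p = 0.0660). It passed the test with total-count scaling and without the low-count filter. Dnajb4 had 91.5 and 97.5 CPM against 66.1 CPM (log2 fold change 0.52, SE 0.22, edgeR adjusted p = 0.172), and Dnaja1 had 98.5 and 113 CPM against 75.4 CPM (0.49, SE 0.23, edgeR adjusted p = 0.208). Dnajc24, an enzyme helper in diphthamide synthesis, had 10.6 and 14.0 CPM against 8.28 CPM. In each of these 4, both shRNA libraries lay above the control. This is not separate support, because the 4 were picked by a fit of the same libraries.

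The other cytosolic members had the following levels. Dnajb6, which holds back protein aggregation and is mutated in a human limb-girdle muscular dystrophy, had 81.4 and 81.0 CPM with Tead4 shRNA against 90.9 CPM with control shRNA. Dnajb5 had 58.6 and 66.1 CPM against 62.2 CPM, and Dnajc2, a co-chaperone at the ribosome, had 30.4 and 37.3 CPM against 43.3 CPM. Dnaja4 had 42.3 and 48.0 CPM against 38.2 CPM, but 44.1% of its exon length overlaps Wdr61 on the opposite strand, so its value is uncertain. Dnajc12 had 33 and 42 reads against 33 reads, or 1.64 and 2.67 CPM against 2.06 CPM, with intervals that include no change.

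Dnajc21 (ENSMUSG00000044224), which takes part in the maturation of the large ribosomal subunit, was the nuclear member that fell. It had 46.0 and 48.2 CPM with Tead4 shRNA against 80.8 CPM with control shRNA, alike with the pair of shRNAs and below the control (log2 fold change -0.78, SE 0.21, edgeR adjusted p = 0.0214). DESeq2 did not call it (adjusted p = 0.0665). The splicing factor Dnajc8 had 67.9 and 67.9 CPM against 69.8 CPM, near equal in all 3 libraries. Dnajc9, a chaperone of histones known from dividing cells, had 26.9 and 26.1 CPM against 18.9 CPM (log2 fold change 0.49, SE 0.25, edgeR adjusted p = 0.258); the 4 dividing-cell markers above rose in the same libraries, and their part in this value was not tested. Dnajc17, another splicing factor, had 70 and 50 reads against 87 reads.

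Of the vesicle members, Dnajc5, the cysteine string protein of secretory vesicles, had 182 and 205 CPM with Tead4 shRNA against 158 CPM with control shRNA (log2 fold change 0.29, SE 0.23). Dnajc13 of endosomes stood at 2 identifiers, of which GENCODE M21 holds ENSMUSG00000032560 and not ENSMUSG00000054574. ENSMUSG00000032560 had 90.7 and 76.7 CPM against 61.4 CPM, and ENSMUSG00000054574 had 58.4 and 47.0 CPM against 41.4 CPM. Both were highest with shRNA A and lowest with control shRNA, and neither passed the test. Dnajc27 had 14.0 and 15.6 CPM against 16.1 CPM. Dnajc6, the clathrin-uncoating factor auxilin, had 6 and 20 reads against 16 reads, below the control with shRNA A and with an interval that includes no change with shRNA B. Of the members with no compartment assigned, Dnajc4 had 251 and 269 reads against 219 reads, or 12.5 and 17.1 CPM against 13.6 CPM. Once scaled, Dnajc4 was below the control with shRNA A, within counting error, and above it with shRNA B. Dnajc28 had 83 and 75 reads against 88, and Dnajc22 had 2 and 5 against 11.

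Taken singly, the shRNA A and shRNA B libraries give a ratio of scaled counts to the control each, whose 95% exact interval covers counting error and no replicate spread. In 15 members both ratios were below the control with intervals that exclude no change. In 10, among them both Dnajc13 identifiers, both ratios were above the control. Over all tested genes 21.4% were below and 21.7% above in this sense. No member had ratios in opposite directions with intervals that exclude no change, against 3.16% of all tested genes. In the lumen, 4 of 5 members were below in both and 1, Dnajc10, was above. In the reticulum membrane, 4 of 6 were below and 0 above, and in the cytosol 4 of 12 were below and 5 above. Both ratios share the control library.

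**Figure D2:**
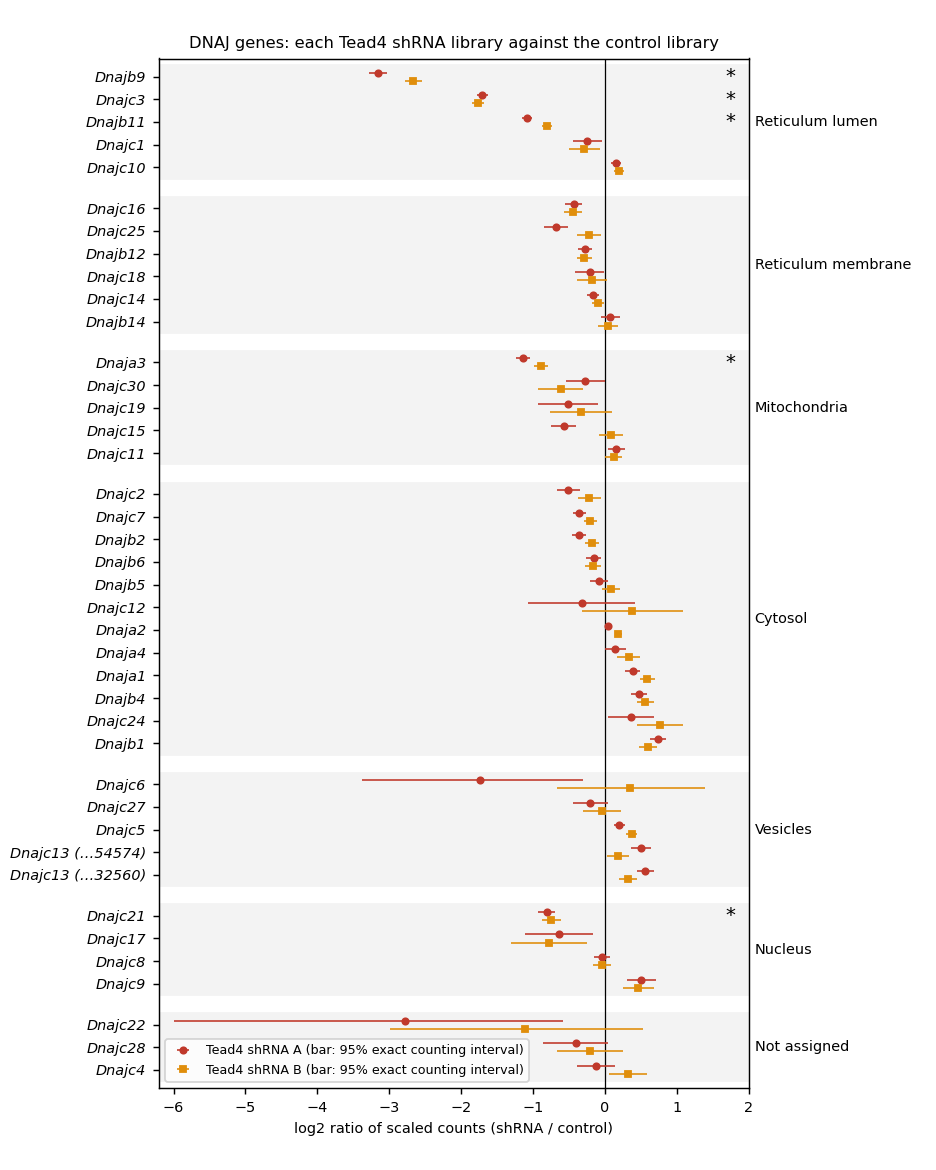
log2 ratio of each DNAJ gene in the shRNA A and shRNA B libraries against the control library, grouped by compartment, with 95% exact counting intervals; an asterisk marks a gene that passed the edgeR test over both libraries. Dnajb9 and Dnajc3 lie farthest left, apart from the thinly counted Dnajc22 and Dnajc6, and the cytosolic genes run from -0.51 to 0.76.

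The pair of shRNAs was compared through the ratio of shRNA A to shRNA B. In 17 members the level with shRNA B was above that with shRNA A with an interval that excludes no change. In 4, among them both Dnajc13 identifiers, it was below. Over all tested genes these shares were 25.3% and 25.4%. The cytosol held 9 of the 17, and its median log2 ratio to control was -0.02 for the shRNA A library and 0.26 for the shRNA B library. The lumenal median was -1.08 for A and -0.81 for B. Dnajc15 had a log2 ratio of A to B of -0.66 (-0.84 to -0.49) and Dnajc25 of -0.45 (-0.63 to -0.28), gaps of the order of that of Dnajb9. Dnajc6, Dnajc22 and Dnajc12 had wider ratios on 108 reads or fewer each.

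As a pool, the make-up of DNAJ transcripts differed between the groups. Lumenal members took 18.3% of all DNAJ reads in the shRNA A library and 18.6% in the shRNA B library, against 31.9% in the control library, and the exact 95% intervals of both shRNA libraries end below that of the control, which starts at 31.5%. Cytosolic members took 43.1% and 43.8% against 33.6%, and vesicle members 12.6% and 11.8% against 8.12%. The reticulum membrane took 13.7% and 13.3% against 13.0%, and mitochondrial members 6.49% and 6.82% against 7.70%. Nuclear members took 5.26% and 4.95% against 5.10%, and unassigned ones 0.609% and 0.753% against 0.577%. Divided by the length of the principal GENCODE transcript, which 39 of the 40 rows had, the lumenal share was 16.2% and 16.8% against 29.7%, and the cytosolic share 50.3% and 50.5% against 39.1%. In summed level the lumenal genes had 502 and 547 CPM against 1095 CPM, and the cytosolic genes 1180.2 and 1288 CPM against 1152 CPM. Vesicle genes summed to 345 and 346 CPM against 278 CPM. The lumenal sum was below the control in both shRNA libraries. The cytosolic sum was above it in CPM, but per length it was 449 and 489 CPM per kb against 452 CPM per kb, slightly below the control with shRNA A. These intervals cover counting error only.

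**Figure D3:**
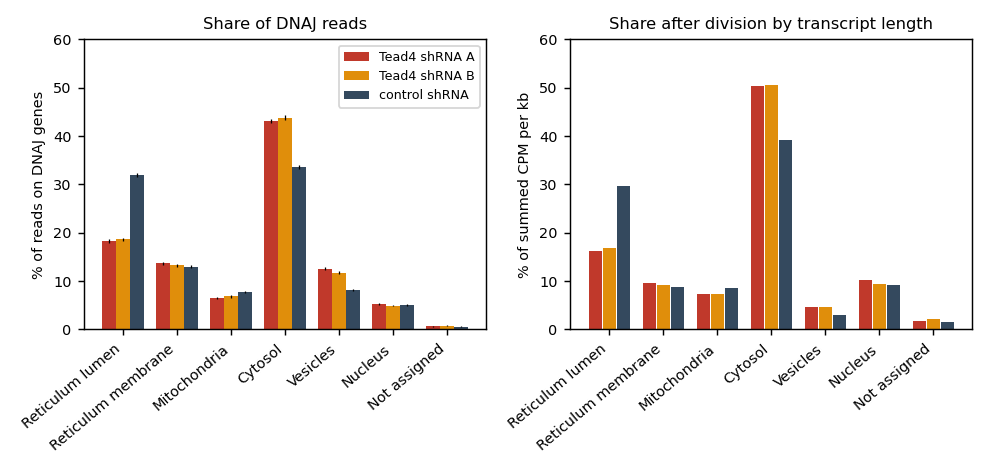
Share of each compartment in the DNAJ pool, as percent of DNAJ reads (left, bars on top are 95% exact counting intervals) and as percent of summed CPM per kb of transcript (right), for shRNA A, shRNA B and the control. The lumenal share is 18.3% and 18.6% of reads with Tead4 shRNA against 31.9% with control shRNA.

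Per length of transcript, the leading gene and the next were the same in each library, and the gene after them differed. With shRNAs A and B, Dnaja2 was first at 163 and 180 CPM per kb, followed by Dnajb11 at 57.5 and 69.4 and by Dnajc10 at 52.9 and 54.7, and Dnajb9 had 12.4 and 17.4. With control shRNA, Dnaja2 was first at 158 CPM per kb, followed by Dnajb11 at 122 and Dnajb9 at 110.2. Lengths come from a later annotation than the authors used, so these levels are approximate.

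The partners of the DNAJ proteins were taken from lists of Hsp70 proteins, their exchange factors and J-domain proteins of other names. In the reticulum 3 of 6 fell. Hspa5 had 513 and 582 CPM with Tead4 shRNA against 8254 CPM with control shRNA (log2 fold change -3.91, SE 0.24, edgeR adjusted p = 2.44e-10). The exchange factor Hyou1 fell by 2.79 on the log2 scale (SE 0.23), and Sdf2l1, a partner of Dnajb11, fell by 4.30 (SE 0.22). Not called were the second exchange factor Sil1 (log2 fold change 0.09, SE 0.23), Sdf2 (-0.10, SE 0.22) and the J-domain protein Sec63 of the translocon (-0.39, SE 0.23). Hspa5 had a lower log2 fold change than each lumenal DNAJ gene, a difference that was not tested. Per length, the level of Hspa5 was 0.967 and 0.976 times the summed level of the 5 lumenal DNAJ genes with Tead4 shRNA, against 6.56 times with control shRNA.

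In mitochondria, Hspa9 fell beside Dnaja3, with 513 and 549 CPM with Tead4 shRNA against 1059 CPM with control shRNA (log2 fold change -0.996, SE 0.23, edgeR adjusted p = 0.00761). The other 5 mitochondrial partners did not pass the test: the exchange factors Grpel1 (-0.17, SE 0.22) and Grpel2 (-0.37, SE 0.24), the import motor parts Timm44 (-0.01, SE 0.22) and Magmas (-0.17, SE 0.36), and the J-domain protein Hscb (-0.002, SE 0.32), which serves iron-sulfur cluster assembly.

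In the cytosol, 2 of 18 partners rose and 1 fell. Hspa1a had 30.5 and 19.9 CPM with Tead4 shRNA against 6.98 CPM with control shRNA (log2 fold change 1.86, SE 0.31, edgeR adjusted p = 3.12e-04). Hspa1b had 28.2 and 14.0 CPM against 6.10 CPM (1.79, SE 0.36, edgeR adjusted p = 0.00207). Both were higher with shRNA A than with shRNA B and above the control in each. They are near-identical copies, so the split of reads between them is uncertain. Hspa2 fell, with 26.5 and 22.6 CPM against 44.3 CPM (-0.85, SE 0.23, edgeR adjusted p = 0.0204). The constitutive Hspa8 had 902 and 934 CPM against 751 CPM (0.29, SE 0.25) and the heat shock factor Hsf1 had 61.4 and 54.1 CPM against 71.4 CPM (-0.30, SE 0.22), and neither passed the test.

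**Figure D4:**
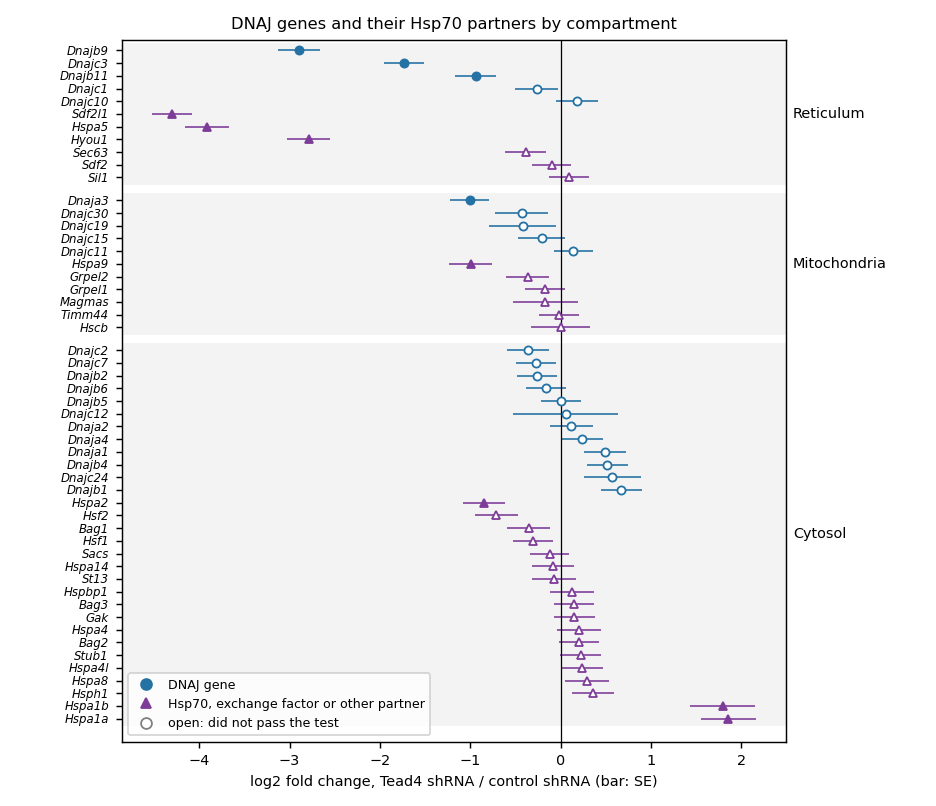
log2 fold change of Tead4 shRNA over control shRNA for lumenal, mitochondrial and cytosolic DNAJ genes (circles) and for their Hsp70 proteins, exchange factors and other partners (triangles); bars are SE and open symbols did not pass the edgeR test. Hspa5, Hyou1 and Sdf2l1 lie with Dnajb9, Dnajc3 and Dnajb11 on the left, Hspa9 lies at the level of Dnaja3, and Hspa1a and Hspa1b lie on the right.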

How the data were processed

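Raw read counts per Ensembl gene and library, as deposited by the authors, were used for every test. The normalized values that the authors deposited beside them are a score without a unit: each equals the raw count times 1 factor per library (0.801 for shRNA A, 1.02 for shRNA B and 1.00 for control), rounded. TopHat 1.0.12, Cufflinks 0.8.2, DESeq and mm9 are named, per the submitters' processing notes, without roles; the read counter and the treatment of reads from several genes are not given in the sources used here. Libraries were single-end and unstranded, per the labels' protocols.

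Genes passing filterByExpr (14478) were scaled by TMM and tested with edgeR 4.0.16 (legacy quasi-likelihood F test, R 4.3.3), both Tead4 shRNA libraries against the control, with Benjamini-Hochberg adjustment over all of them and a threshold of 0.05. All 40 members passed the filter. SE is the absolute log2 fold change over the square root of F. The step was also run on simulated counts, with the Tead4 shRNA libraries drawn as repeats at a fixed dispersion. Such a run cannot show how the test behaves where the libraries come from different shRNAs. Ratios of scaled counts and shares carry 95% exact (Clopper-Pearson) intervals, for counting error only; depth was 15594305 to 19918954 reads. Alternatives were other scalings, no filter, DESeq2 1.42.0, limma 3.58.1 (voom) and other edgeR settings. Overlaps and transcript lengths come from GENCODE M21, matched by identifier for 39 of the 40 rows; promoters come from RefSeq (GRCm38.p6).

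Named in full were the called members, the lumenal list, the 3 most abundant members of each other compartment, the called partners and each compartment's Hsp70. The members, lists and compartments were chosen with earlier results of these data known.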

Additional observations from a re-analysis of the deposited data

How the results depend on the processing

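The 5 lower members kept their calls in 8 of 10 alternatives. The likelihood-ratio test with 1 dispersion group called 0 members and 0 genes of the whole table. Its dispersion takes in the difference between the groups, so it has little power to call any gene. DESeq2 called 4. No member was called higher in the reported fit, and 1 (Dnajb1) was with total-count scaling and without the low-count filter. The count of members at least 2-fold lower in both libraries, with intervals that exclude no change, was 2 under each of the 4 other scalings. The reticulum membrane median was -0.20 with upper-quartile and -0.20 with total-count scaling, and the nuclear median -0.33 and -0.32. With the unassigned Dnajc4 and Dnajc28 added to the mitochondrial list, its median was -0.30. With 1 shRNA library left out, a ratio without a test, the medians ran from -0.23 to -0.07 over all members, from -0.25 to -0.20 in the reticulum membrane, from 0.20 to 0.32 in vesicles and from -0.02 to 0.26 in the cytosol, whose sign reversed to -0.020 without shRNA B. Summing the Dnajc13 identifiers, chosen after seeing the data, left the counts of members called lower and called higher unchanged. The other counts and the medians were not recomputed and hold both identifiers. No paired analysis was possible because the control group has 1 library and the shared number 1 is only a name. Members under about 100 reads were too thinly counted for small differences to be detected.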
